A study of Mus musculus with 6 samples.

Results

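The histidine triad genes Hint1, Hint2, Hint3, Fhit, Aptx and Dcps were followed through 6 left ventricle libraries, 3 of them from mice with a HINT2 transgene. These genes encode Hint2, its closest paralogs and more distant relatives, and they were taken by gene name from the deposited count table. All 6 of the 6 names were found among the 54532 genes of the table, and 5 of them were among the 14774 genes with enough counts for a test. Fhit was the exception.

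RNA was taken from the left ventricle of male mice 4 weeks after aortic banding (AB), an operation that narrows the aorta and so loads the left ventricle with pressure. The mice were 8 to 10 weeks old at surgery. The 3 TG mice have the genotype HINT2CTG-Myh6Cre, in which a HINT2 transgene behind the ubiquitous CAG promoter is switched on in cardiomyocytes by a Cre driven by Myh6. They had received tamoxifen at 5 mg/kg/d for 7 days. The 3 NTG mice are given as C57BL/6J. Whether NTG mice carried Cre or received tamoxifen is not given in the sources used here, so the transgene, Cre and tamoxifen cannot be told apart. AB was common to all 6 mice, and sham-operated mice were not analysed here. Poly-A selected RNA was sequenced in 3 libraries per group from 3 mice per group, and total counts on genes lay between 14863568 and 17581220. Levels are given as CPM, which are counts scaled by TMM to a common library size.

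Proteins of this family bind nucleotides in a pocket that is closed by a histidine triad, 3 histidines set apart by single hydrophobic residues, and most of them use the middle histidine to attack a phosphate. Hint1 in the cytosol and nucleus and Hint2 in mitochondria split the bond between a nucleotide phosphate and an amine. Hint3 is a less studied member of the same branch. Fhit cleaves dinucleoside polyphosphates such as diadenosine triphosphate, aprataxin (Aptx) removes AMP from the ends of DNA after a failed ligation, and DcpS (Dcps) hydrolyses the cap that remains when an mRNA has been degraded from its 3′ end. In the heart, Hint2 is the member that has been tied to mitochondrial function.

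The coding sequence over the triad is what these 6 genes have in common, and it is shown because it tells how far reads of one gene could be counted on another. Each line below gives 13 codons of the longest protein, 5′ to 3′ on the coding strand, with the 3 histidine codons in capitals. The sequences come from GENCODE mouse release M21 on GRCm38.
Hint1: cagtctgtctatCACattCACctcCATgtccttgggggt
Hint2: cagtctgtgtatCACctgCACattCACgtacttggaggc
Hint3: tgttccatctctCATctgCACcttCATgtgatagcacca
Fhit: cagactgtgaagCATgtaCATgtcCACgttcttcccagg
Aptx: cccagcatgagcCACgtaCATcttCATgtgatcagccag
Dcps: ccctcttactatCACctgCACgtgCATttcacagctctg

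The Hint2 stretch lies in a coding exon at chr4:43654347-43654385 on the minus strand, and its first histidine is residue 147 of 163. The Hint1 stretch lies at chr11:54870288-54870326 on the plus strand, with residue 110 of 126 as its first histidine. Those of Hint3 at chr10:30610380-30610418 and Dcps at chr9:35124743-35124781 are also within 1 exon, both on the minus strand. In Fhit and Aptx, on the minus strands of chromosomes 14 and 4, an intron splits the stretch. Over these 39 bases, Hint2 was identical to Hint1 at 30 bases, to Fhit at 24, to Hint3 at 22, to Dcps at 21 and to Aptx at 17. The proteins of Hint1 and Hint2 were identical at 60.3% of 126 aligned residues, against 31.5% of 111 for Hint2 and Hint3. Even so, only short runs of bases were shared between the transcripts that encode the longest protein of each gene. The longest run of Hint2 was 11 with Hint1, 9 with Hint3, 10 with Fhit and with Aptx, and 12 with Dcps. None of the 1647 stretches of 31 bases in Hint2 transcripts occurred in a transcript of another gene. For the relatives, between 0.527% of such stretches (Aptx) and 5.75% (Dcps) also occurred in other genes. The table names the mouse gene, and transgene reads add to the count of Hint2 to the extent that they align there. The species of the HINT2 sequence in the transgene is not named in the text used here. The study shows the construct in supplementary figure panels, which were not read.

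Hint2, the targeted gene, was read first (ENSMUSG00000028470, minus strand, chr4:43654227-43656466). Counts of 793, 828 and 859 were found for the TG libraries in the order of their numbers. For NTG 2 and NTG 3 the counts were 545 and 559. Just 12 counts, with an exact 95% Poisson interval of 6.2 to 21 that covers counting error only, came from the library labelled NTG 1. It lies far below the other NTG libraries, and so farther from the TG counts than they do. Its label was kept, and the cause was not tested. Over all genes this library was nearer to TG 1, TG 2 and TG 3, with a chi-square per gene of 21.5, 17.8 and 28.1, than to NTG 2 and NTG 3, with 71.2 and 33.1. It was not alone in this, since TG 2 was nearer to NTG 1 (17.8) and NTG 3 (28.5) than to TG 1 (32) or TG 3 (36.8), and NTG 3 was nearer to TG 2 than to NTG 1. Fitted differences of the members and related genes are therefore given with and without it.

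In CPM, Hint2 was at 57.1, 47 and 53 in TG 1, TG 2 and TG 3. The NTG libraries gave 0.818, 28.9 and 32.3 in the same order. Every TG library was thus above every NTG library, and the library labelled NTG 1 was 37.4-fold below the mean of the other two NTG libraries. The means were 52.4 ± 5.08 CPM (SD, n = 3) in TG and 20.7 ± 17.3 CPM (SD, n = 3) in NTG hearts. By edgeR's quasi-likelihood test the log2 fold change was 1.33 with a standard error of 0.86 (adjusted p = 0.433), which did not pass the test. When the library labelled NTG 1 was left out, the value fell to 0.77 with a standard error of 0.12, a 1.71-fold higher level in TG, and the adjusted p was 0.0212. A call required a log2 fold change that exceeded 0.5 in size together with an adjusted p under 0.05. Hint2 was then called, as were 5.52% of the 15136 genes tested without that library. That library stood out by its Hint2 count, so this fit gives no independent test of Hint2. Over the 15 alternative fits, this one included, the adjusted p ran from 0.0212 to 0.689. An exact two-sided permutation test of the CPM gave p = 0.1, the smallest that 3 libraries against 3 allow, and 0.3 after adjustment over the 6 genes.

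**Figure D1:**
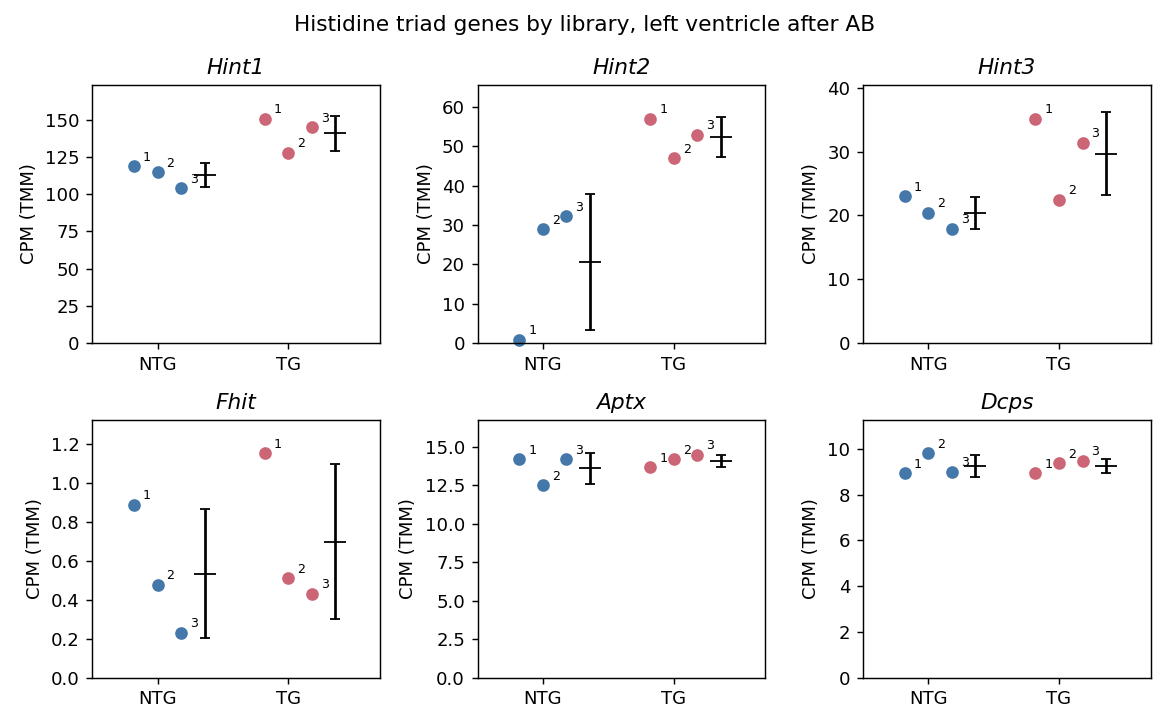
CPM of the 6 histidine triad genes (vertical axes start at 0 and differ between panels) in NTG and TG left ventricles, with 1 point per library marked by its replicate number and a bar for the mean ± SD of the 3 libraries. The Hint2 point at 0.818 CPM is the library labelled NTG 1, which stands with the other NTG libraries in the panels of Hint1, Aptx and Dcps.

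The relatives of Hint2 were not low in the library labelled NTG 1. On the log2 CPM scale with a prior count of 2, this library minus the mean of NTG 2 and NTG 3 was −5.03 for Hint2. The same difference was 0.13 for Hint1, 0.26 for Hint3, 0.094 for Aptx and −0.073 for Dcps. Among all 14774 genes tested, Hint2 had the lowest value of this difference, where the SD over genes was 0.51 and 8 genes, Hint2 among them, were lower by more than 3 log2 units. Next came Retnlg at −4.49, S100a9 at −3.87 and S100a8 at −3.83, genes of neutrophils. Those 3 differed from Hint2 in that NTG 2 held most of their counts, for S100a9 2046 counts against 260 in NTG 3 and 32 to 82 in the TG libraries. Measured as the gap below the lowest of the other 5 libraries, Hint2 again stood first in the library labelled NTG 1 with 4.95 log2 units, ahead of 2.74 for Gm12381. The widest such gap of any tested gene in another library was 3.30, for Garem2 in TG 3. These other genes were picked after their values had been seen.

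Genes around Hint2 did not share its low level there. Npr2, the receptor of C-type natriuretic peptide, lies 2983 bases away on the opposite strand and had 984, 1092 and 1151 counts in NTG 1, NTG 2 and NTG 3. Tmem8b, 12505 bases away, had 552, 473 and 585. Spag8 and Fam221b, the nearest genes on either side, had 0 to 12 counts in any library and were too low to read. Gm12473, annotated as antisense but on the same strand as Hint2 and 12694 bases from it, had 55, 57 and 59 counts in the NTG libraries. In TG hearts Npr2 and Tmem8b had 826 to 1083 and 500 to 592 counts, with log2 fold changes of −0.13 and 0.11 (adjusted p = 0.527 and 0.713). No gene of the table overlapped Hint2.

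**Figure D2:**
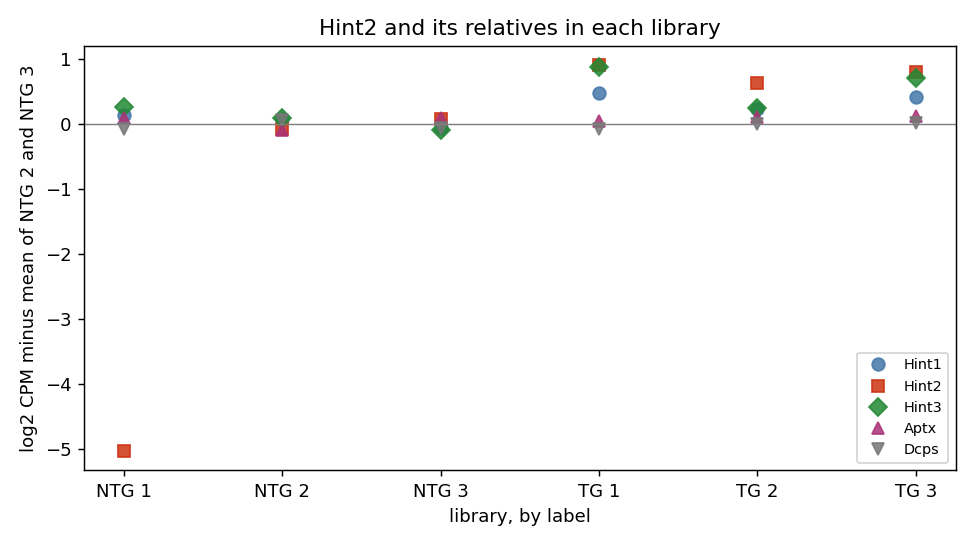
Log2 CPM (prior count of 2) of the 5 tested genes in each library, minus the mean of that gene in NTG 2 and NTG 3, with 1 symbol per gene. Hint2 is at −5.03 in the library labelled NTG 1, where the 4 relatives lie between −0.073 and 0.26, while in the TG libraries Hint1, Hint2, Hint3 and, by at most 0.12, Aptx are above 0.

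Hint1, the closest paralog (ENSMUSG00000020267, plus strand, chr11:54866383-54870501), was at 119, 115 and 104 CPM in NTG 1, NTG 2 and NTG 3. In TG 1, TG 2 and TG 3 it was at 151, 128 and 145 CPM. The groups did not overlap, and the library labelled NTG 1 had the highest of the NTG values. Hint1 was 1.25-fold higher in TG (log2 fold change 0.33, standard error 0.10), with an unadjusted p of 0.0138 and an adjusted p of 0.207 from edgeR, and so did not pass the test. Leaving out the library labelled NTG 1 gave 0.37 (adjusted p = 0.0939). In none of the 15 other fits did the adjusted p fall below that value, and the log2 fold change ran from 0.24 to 0.39.

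Hint3 (ENSMUSG00000019791, minus strand, chr10:30608141-30629632) was at 23, 20.4 and 17.9 CPM in NTG 1, NTG 2 and NTG 3. The TG libraries held 35.2, 22.5 and 31.4 CPM, and the groups overlapped because TG 2 was just below the library labelled NTG 1. Hint3 had a log2 fold change of 0.54 (standard error 0.18, unadjusted p = 0.0162, adjusted p = 0.211, edgeR), which did not pass. It was 0.63 without the library labelled NTG 1 (adjusted p = 0.0939), and the adjusted p ran from 0.0914 to 0.49 over the 15 other fits. Hint3 overlaps Ncoa7, a nuclear receptor coactivator on the same strand, which had a log2 fold change of −0.38 (adjusted p = 0.391). How reads in the shared stretch were counted is not given in the sources used here.

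Aptx and Dcps hardly differed between the groups. Aptx (ENSMUSG00000028411, minus strand, chr4:40682382-40703194) was at 14.2, 12.5 and 14.2 CPM in the NTG libraries and at 13.7, 14.2 and 14.5 CPM in the TG libraries. The fitted difference was 0.056 on the log2 scale, with a standard error of 0.12 (adjusted p = 0.821, edgeR). Dcps (ENSMUSG00000032040, minus strand, chr9:35124408-35176061) was at 8.93, 9.81 and 9.01 CPM in NTG and 8.93, 9.37 and 9.49 CPM in TG. Here the fitted log2 difference was 0.0017, with a standard error of 0.13 (adjusted p = 0.995, edgeR). The direction of either value flipped under other settings, and without the library labelled NTG 1 they were 0.084 and −0.025. Dcps overlaps 4930581F22Rik on the opposite strand, which had 31 to 64 counts per library. Of the stretches of 31 bases in Dcps, 5.75% also occur in that gene. Without strand in the counting, reads within the shared stretches cannot be told apart.

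Fhit (ENSMUSG00000060579, minus strand, chr14:9550092-11162035) was close to the limit of detection. It had 13, 9 and 4 counts in NTG 1, NTG 2 and NTG 3 and 16, 9 and 7 counts in TG 1, TG 2 and TG 3. These counts left it below the filter on low counts. In a fit with no such filter its log2 fold change was 0.39 with a standard error of 0.60 (adjusted p = 0.785, edgeR), and a difference between the groups was not detectable at this depth. The antisense gene Fhitos and the other genes inside Fhit had at most 3 counts in any library.

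Counted together, 0 of the 5 tested genes were called, and the same 0% held for all genes tested, where the smallest adjusted p was 0.196. At an unadjusted p under 0.05, 2 of the 5 genes (Hint1 and Hint3) were higher in TG and 0 were lower. Among all genes tested 18.6% passed this looser rule in either direction and 8.83% passed it with a higher level in TG. Without the library labelled NTG 1, 3 of the 5 genes (Hint1, Hint2 and Hint3) were higher at this rule and 0 lower, against 27% of all genes in either direction and 13.7% higher in TG. That library stood out by its Hint2 count, so Hint2 gives no independent support there. The groups did not overlap, with TG above NTG, for 2 of the 5 (Hint1 and Hint2), against 11.2% of all genes. DESeq2, the tool the study used, called 0 of the 5 and 3.93% of all genes. Its adjusted p was 0.105 for Hint1, 0.112 for Hint3 and 0.572 for Hint2. The median log2 fold change of the 5 genes was 0.33, and that of all genes was −0.0081. Without that library the medians were 0.37 and −0.011. With 5 genes, these counts describe the genes and single out no pattern of the family.

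**Figure D3:**
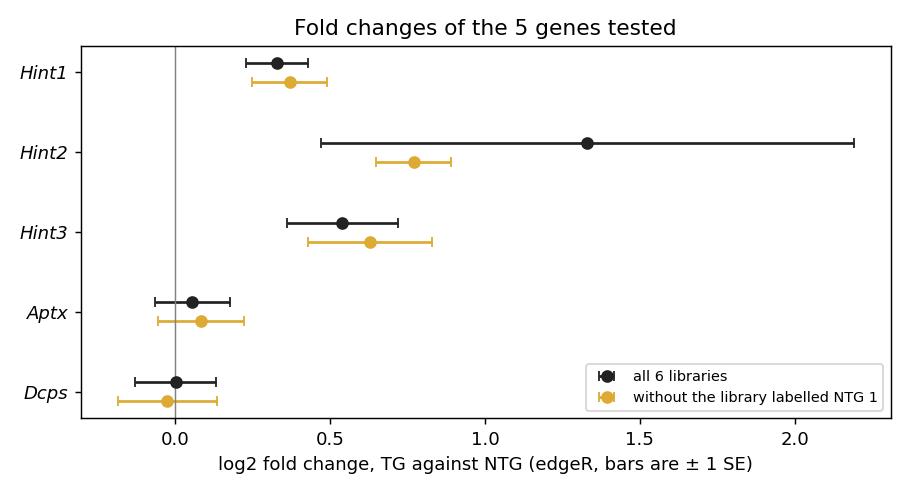
Log2 fold change of TG against NTG ± 1 standard error from edgeR for the 5 tested genes, from all 6 libraries (black) and without the library labelled NTG 1 (yellow). The standard error of Hint2 was 0.86 with that library and 0.12 without it, while the values of Hint1 and Hint3 moved from 0.33 to 0.37 and from 0.54 to 0.63.

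Whether the relatives move with Hint2 was read from the order of the libraries and from the ratio of Hint2 to each of them. Hint1, Hint2 and Hint3 shared the order within the TG group, with TG 2 lowest, TG 3 in the middle and TG 1 highest. The summed cardiomyocyte markers, at 29746, 35574 and 36942 CPM, and the share of counts on mitochondrially encoded genes, at 16%, 20.3% and 21.5%, had this order of TG libraries too. In both, the library labelled NTG 1 lay between TG 2 and TG 3, as it did for Hint3. The part of these values in the levels was not tested. Within NTG the order of Hint2 was the reverse of that of Hint1 and Hint3, since the library labelled NTG 1 was lowest for Hint2 and highest for the other two. Neither Aptx nor Dcps followed the order of Hint2 within either group, other than the first place of NTG 1 for Dcps. Hint2 fell into separate clusters of libraries (1, 2 and 3 libraries), so no pooled correlation was tested.

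The log2 ratio of Hint2 to Hint1 was 2.19 higher in TG than in NTG (exact two-sided permutation test, p = 0.1, adjusted p = 0.167 over the 5 ratios). It was 0.40 higher without the library labelled NTG 1, with −1.45 to −1.40 in the TG libraries against −1.99 to −1.69 in NTG 2 and NTG 3. The TG and NTG values did not overlap in either case, although 3 libraries against 2 cannot reach p = 0.05 in an exact permutation test. The ratio to Hint3 was 1.99 higher in TG with all libraries (exact permutation test, p = 0.3, adjusted p = 0.375). Without the library labelled NTG 1 it was 0.16 higher, and its values overlapped, at 0.70 to 1.06 in TG and 0.50 to 0.85 in NTG 2 and NTG 3. The ratios to Aptx and Dcps were 2.46 and 2.51 higher with all libraries (exact permutation test, p = 0.1 and adjusted p = 0.167 for each), and 0.68 and 0.79 higher without that library, with no overlap in either case. For Fhit, the ratio was 2.05 higher with all libraries (exact permutation test, p = 0.7) and changed sign to −0.16 without that library.

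Levels of different genes were compared per length, as FPKM, which divides CPM by the length of the gene in kilobases. Hint1 was the most abundant member with a mean of 146 FPKM over the 6 libraries (119 to 173). Hint2 followed with 23.7 (0.531 to 37.1), at 34 ± 3.3 (SD, n = 3) in TG and 13.4 ± 11.2 (SD, n = 3) in NTG. Dcps had 6.38 FPKM (6.16 to 6.76), Hint3 4.54 (3.25 to 6.37), Aptx 2.35 (2.12 to 2.46) and Fhit 0.412 (0.155 to 0.773). Neighbours in this order whose ranges overlapped were Dcps with Hint3, and Hint2 with Dcps through the library labelled NTG 1 alone. In TG libraries Hint1 had 4.67 to 4.83 times the FPKM of Hint2. The same ratio was 7.02 in NTG 2, 5.68 in NTG 3 and 258 in the library labelled NTG 1. Of the summed FPKM of Hint1, Hint2 and Hint3, Hint2 held 16.7% to 17.1% in TG, 12.2% and 14.6% in NTG 2 and NTG 3, and 0.375% in the library labelled NTG 1. The length in the table is that of all exons merged, which for Hint3 is 5519 bases against 875 in its longest coding transcript. On coding transcript lengths Hint1 had 2.54 to 2.63 times the FPKM of Hint2 in TG, 3.81 and 3.09 times in NTG 2 and NTG 3 and 140 times in the library labelled NTG 1. The share of Hint2 among the Hint genes was then 24.8% to 25.3% in TG, 18.9% and 22.4% in NTG 2 and NTG 3, and 0.623% in the library labelled NTG 1. On this length Hint3 was at 28.6 FPKM and moved ahead of Dcps at 6.41, with Hint1 at 200 and Hint2 at 59.9 still first and second.

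**Figure D4:**
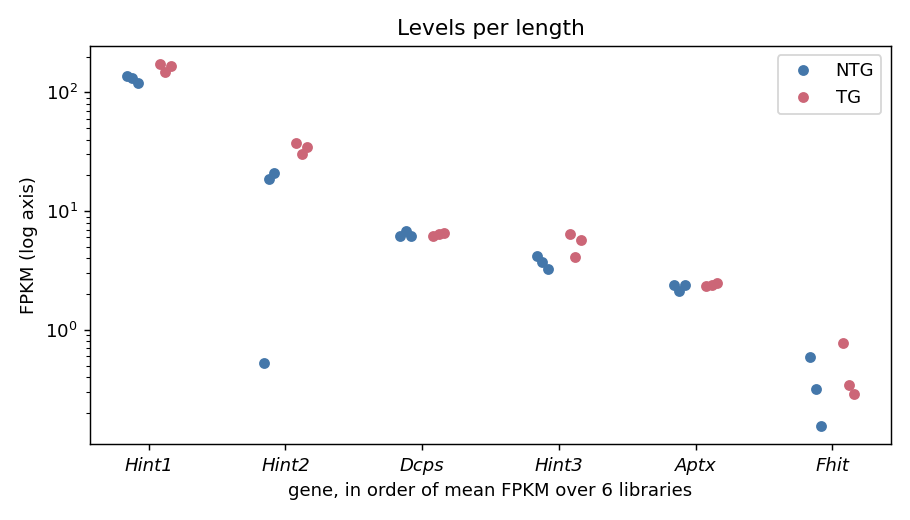
FPKM on a log axis for each library (points, NTG and TG in different colours) of the 6 genes, ordered by their mean over 6 libraries. Hint1 is highest at 119 to 173 FPKM and Fhit lowest at 0.155 to 0.773, and the Hint2 point at 0.531 is the library labelled NTG 1.

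The genes whose log2 CPM followed Hint2 most closely differed with the libraries used. Over all 6 libraries they were Gm19196 (Pearson r = 0.9955), Gm43668 (0.9871), Slx4 (0.9807), Cacna1a (0.9776) and C130036L24Rik (0.9767), all of them lowest in the library labelled NTG 1. That library minus the mean of NTG 2 and NTG 3 ran from −0.25 on the log2 scale for Slx4, a scaffold of DNA repair nucleases, to −1.83 for Gm43668, against −5.03 for Hint2. Over the 5 libraries without it they were Ndufa2 (0.9997), Ndufs6 (0.9992), Uqcr11 (0.9987), Rnf39 (0.9986) and Mn1 (0.9983), and 0 genes were shared between both sets. Ndufa2 and Ndufs6 encode subunits of respiratory complex I and Uqcr11 a subunit of complex III. Ndufa2 was at 154, 108 and 123 CPM in NTG 1, NTG 2 and NTG 3 and at 255, 197 and 227 CPM in the TG libraries, so the library labelled NTG 1 was its highest NTG library. Pearson r with Hint2 over 6 and then over 5 libraries was 0.336 and 0.92 for Hint1 and 0.261 and 0.886 for Hint3. For Aptx it was −0.112 and 0.597, and for Dcps 0.382 and −0.397. Of the other 14773 genes tested, 2761 followed Hint2 more closely than Hint1 did over 6 libraries, and 1518 over 5 libraries. For Hint3 these numbers were 3531 and 2003. Dcps was the member closest to Hint2 over 6 libraries, with 2381 genes closer, and the farthest over 5 libraries, with 9010 closer. For Aptx the numbers were 8893 and 4370. These correlations are descriptions over few libraries from both groups. A difference between TG and NTG, or the library labelled NTG 1 alone, can set their size.

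By edgeR with the filter on low counts, 0 related genes were called with all libraries. DESeq2, an edgeR fit with no low-count filter and one without the library labelled NTG 1 each called 1, which was Sirt3 in all 3. The related genes tested were 50 in each of these fits, other than 51 with no filter. Of all genes DESeq2 called 3.93%, the fit with no filter 232 of 26858 and the fit without that library 5.52%, so 1 call is no more than the background of DESeq2 and of the last fit. The 4 lists held 52 genes. The looser rule of an unadjusted p under 0.05 was met by 3, or 6%, against 18.6% of all genes. Without the library labelled NTG 1 it was met by 9, or 18%, against 27%. Among the other superfamily genes, 4 of 4 were tested and 1 passed the looser rule. This was Galt, the galactose-1-phosphate uridylyltransferase, at 19.6, 17.1 and 20.3 CPM in NTG and 23.5, 21 and 24.8 CPM in TG (log2 fold change 0.28, standard error 0.12, adjusted p = 0.263). Gdpgp1, a GDP-glucose phosphorylase, had a log2 fold change of 0.43 (adjusted p = 0.382), and the median of the list was 0.053. Without the library labelled NTG 1, Galt was at 0.30 (adjusted p = 0.205), Gdpgp1 at 0.38 (adjusted p = 0.447) and the median at 0.087, with 0 of the 4 under the looser rule.

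The partners and neighbouring enzymes of HINT and FHIT proteins held 10 genes, all tested, with a median log2 fold change of 0.14, or 0.10 without the library labelled NTG 1. Under the looser rule, 1 gene was higher and 0 were lower with all libraries, and 4 were higher and 1 was lower without that one. Among all genes 8.83% were higher and 9.76% lower under this rule with all libraries, and 13.7% and 13.3% without that one. Sirt3, the main mitochondrial protein deacetylase, was at 20.4, 15.2 and 17.3 CPM in NTG 1, NTG 2 and NTG 3 and at 29.8, 23.1 and 27.8 CPM in TG 1, TG 2 and TG 3. Each TG library was above each NTG library. In the fit, TG exceeded NTG by 0.61 on the log2 scale (standard error 0.15, unadjusted p = 0.00339, adjusted p = 0.196), and 0.72 without the library labelled NTG 1, where it was called (adjusted p = 0.0366). Prkca, a protein kinase C, was at 43.4, 50.8 and 49.9 CPM in NTG and at 35.5, 45.4 and 38.8 CPM in TG, with a log2 fold change of −0.27 (adjusted p = 0.276), or −0.34 without the library labelled NTG 1 (adjusted p = 0.123).

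Single-strand break repair, the setting of aprataxin, had 13 of 14 genes tested, of which 0 had an unadjusted p under 0.05 against 18.6% of all genes, and a median log2 fold change of −0.073. The smallest p values were those of the DNA end-processing enzymes Tdp2 and Tdp1, with log2 fold changes of −0.23 and −0.27 (adjusted p = 0.382 and 0.423). Without the library labelled NTG 1 they were at −0.26 and −0.38 (adjusted p = 0.318 and 0.208), 1 gene was lower and 0 were higher under the looser rule, against 13.3% and 13.7% of all genes, and the median was −0.013. In mRNA decay and cap metabolism, the setting of DcpS, 23 of 24 genes were tested, 0 were higher and 1 was lower at an unadjusted p under 0.05, against 8.83% and 9.76% of all genes, and the median was −0.047. The lower gene was Dis3, a catalytic exosome subunit, whose 3′ to 5′ decay leaves the capped ends that DcpS acts on, at 15.3, 16.6 and 15.9 CPM in NTG and 12.3, 13.7 and 12.1 CPM in TG. The log2 fold change of Dis3 was −0.33, with a standard error of 0.12 (adjusted p = 0.217). Exosc7, a ring subunit of the exosome, was at 0.34 in log2 fold change (adjusted p = 0.27). Without the library labelled NTG 1, Dis3 was at −0.36 (adjusted p = 0.139), Exosc7 at 0.40 (adjusted p = 0.167) and the median at −0.056, with 1 gene higher and 2 lower under the looser rule, against 13.7% and 13.3% of all genes.

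In these whole-ventricle samples, fewer cells of a type and less RNA per cell cannot be told apart. Summed levels of fibroblast, erythroid and smooth muscle markers did not overlap between the groups, while those of cardiomyocyte, leukocyte and endothelial markers did. The summed CPM of 7 cardiomyocyte markers was 18325 to 31098 in NTG and 29746 to 36942 in TG. The highest NTG sum belonged to the library labelled NTG 1. For 4 fibroblast markers it was 2145 to 3193 in NTG and 1368 to 1947 in TG, again with the library labelled NTG 1 nearest to TG. The sum of 4 erythroid markers was 1225 to 2091 in NTG and 697 to 820 in TG. Of 4 leukocyte markers it was 177 to 347 in NTG and 128 to 182 in TG, of 3 smooth muscle markers 124 to 151 and 193 to 214, and of 4 endothelial markers 1307 to 1522 and 1402 to 1547. No marker of these 6 lists was at 0. The sum of 3 atrial markers was 67.4 in the library labelled NTG 1 and 167 in TG 3, against 2.17 to 29.1 in the other libraries, while markers of liver and skeletal muscle summed to at most 1.48. The share of counts on mitochondrially encoded genes was 13.4% to 19.2% in NTG and 16% to 21.5% in TG. The part of these values in the levels of Hint1, Hint2 and Hint3 was not tested.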

How the data were processed

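The deposited values are raw counts per gene, 1 column per library. The authors counted reads with featureCounts 1.5.0-p3 after mapping and predicted further transcripts with StringTie 1.3.3b, and compared the groups with DESeq2 1.20.0. The submitters' processing notes list HISAT2 and the build GRCh38, while 98.3% of the 54409 genes found in GENCODE mouse release M21 have identical coordinates on GRCm38, which is used here. The strand setting and the handling of reads with several positions are not given in the sources used here. Every column of sample values was matched to a library by its title (0 left over).

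TG was compared with NTG on these counts by edgeR 4.0.16 in R 4.3.3 (TMM, filterByExpr, robust dispersions, glmQLFit and glmQLFTest, no covariate, Benjamini-Hochberg adjustment over 14774 genes), which was first tested on simulated data. Calls followed the thresholds of the study, 0.05 for the adjusted p and 0.5 for the size of the log2 fold change. Mean, SD and exact permutation tests used CPM, and FPKM used the length column of the table. Proteins were aligned pairwise with Biopython 1.88. Alternatives were RLE, upper quartile and library-size scaling, other low-count filters, robust = FALSE, DESeq2 1.42.0, limma 3.58.1 (voom), an adjusted p alone, a replicate block, and each library left out. The chi-square per gene between libraries was 15.5 (TG 1 and TG 3) to 133 (NTG 2 and TG 3), more than sampling noise gives, so each counted as 1 replicate. No batch is given.

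Genes named are the 6 members, the 2 genes of each related list with the smallest p, the 5 genes most like Hint2 with and without NTG 1, and genes that overlap or neighbour a member or lie within 25 kb of Hint2. Retnlg, S100a9, S100a8, Gm12381 and Garem2 were added after their values had been seen. The members and lists were chosen with earlier results of these data known, and the lists were written from recalled function, not from a database release.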

Additional observations from a re-analysis of the deposited data

How the results depend on the processing

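Over fits that each left out 1 library, the log2 fold change of Hint2 ran from 0.77 to 1.79, and Hint2 was called only without NTG 1 (0.77), so that the number of histidine triad genes called ran from 0 to 1. The log2 ratio of Hint2 to Fhit ran from −0.16 without NTG 1 to 3.46, and 0 of the 5 genes most like Hint2 were kept without that library. Among the related genes, 1 (Sirt3) was called with no low-count filter, 1 by DESeq2 and 0 to 1 with a library left out. By limma-voom the log2 fold change of Hint2 was 2.31. Values near 0 changed sign. Aptx was at −0.026 with library size alone and at −0.0054 to 0.084 with a library left out. Dcps was at −0.083 with library size alone, −0.0056 with no low-count filter and −0.025 to 0.046 with a library left out. Library size alone put the median of all genes at −0.093. Of all genes tested, 0 were called by edgeR with filterByExpr and no covariate on all 6 libraries. DESeq2 called 581, edgeR with no low-count filter 232 and edgeR without NTG 1 836. The causes were not tested.

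Same-numbered libraries had correlations of 0.0807, 0.173 and −0.252 in their deviations from the group means. Libraries with different numbers had −0.253 to 0.167. With 3 libraries per group, these values cannot tell whether the replicate numbers in the titles pair the libraries. With a replicate block, the log2 fold change of Hint2 was 1.77 (adjusted p = 0.524, edgeR) and 0 histidine triad genes were called, against 231 of all genes. On coding transcript lengths, the FPKM of Hint1, Hint2, Hint3, Aptx and Fhit moved to 200, 59.9, 28.6, 2.57 and 0.562. Depth limits Fhit.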
